A study of Bos taurus with 12 samples.

Results

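The interaction of TGF-β3 and oxygen was examined in mesenchymal stem cells from bovine bone marrow, that is, whether the response to the growth factor differed between hypoxia and atmospheric oxygen. It was chosen by design and uses all 12 arrays of the 12 in the series and all 26773 probe sets. For each probe set and donor, the TGF-β3 effect at 21% oxygen was subtracted from the TGF-β3 effect at 2% oxygen. This difference of differences is the same number as the hypoxia effect with TGF-β3 minus the hypoxia effect without it. A value of 0 on the log2 scale means that both effects were additive there, so that their fold changes multiplied. A value above 0 means that the signal with both agents was higher than the product of the fold changes predicted, and a value below 0 that it was lower.

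The cells came from femurs and tibiae of 3 juvenile donors, each under 6 months of age. All cells were first grown to confluence over 1 passage at 21% oxygen in high-glucose medium with fetal bovine serum, so the groups share that history. They were then expanded for 1 week in the same medium in 1 of 4 conditions, namely 21% oxygen without TGF-β3, 21% oxygen with TGF-β3 at 10 ng/mL, 2% oxygen without TGF-β3, and 2% oxygen with TGF-β3 at 10 ng/mL. Each condition held 3 arrays, 1 per donor, of total RNA from a culture, so fewer cells of a type and less RNA per cell cannot be told apart.

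TGF-β3 binds a receptor pair with kinase activity, which activates the transcription factors SMAD2 and SMAD3. In stromal cells of the marrow it is known as an inducer of cartilage matrix, contractile proteins and its own feedback inhibitors, and as an opponent of fat cell formation. Low oxygen stops the hydroxylation of HIF-α subunits, which then accumulate and switch on genes of glycolysis, glucose and lactate transport, pH control and blood vessel growth. SMAD and HIF proteins can bind the same promoters, and both pathways act on cartilage formation. The roles given here for genes are those known from human and mouse.

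Array medians lay between 6.59 and 6.66 on the log2 scale. The 8 stromal markers, among them ENG, THY1 and NT5E, all had a mean signal above the third quartile of all probe sets. Of the haematopoietic and endothelial markers, CD14 and PECAM1 were above the median of all probe sets, and the other 3 measured haematopoietic, 3 endothelial, 3 osteoclast and 2 erythroid markers were below it. Changes are given as log2 differences ± the standard error (SE) from limma, a linear model with a moderated variance, with n = 3 arrays per group. Adjusted p-values are those of limma with Benjamini-Hochberg adjustment over all probe sets. The number of arrays limits the precision.

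No probe set passed the test for the interaction at an adjusted p of 0.05, which is 0% of 26773 probe sets, and the same count of 0 was found with the donor as a block. At an unadjusted p under 0.05 limma listed 787 probe sets (2.94%), and 1157 (4.32%) with the donor block, with smallest adjusted p-values of 0.188 and 0.12. The classes of synergy, less than additive effects and opposed effects were therefore empty. In the same fit, TGF-β3 averaged over both oxygen tensions passed in 2582 probe sets (9.64%), of which 1245 rose (4.65%) and 1337 fell (4.99%). With the donor block it passed in 3954 (14.8%), of which 1955 rose (7.3%) and 1999 fell (7.47%). Oxygen averaged over both TGF-β3 states passed in 13 probe sets (0.0486%), of which 12 rose (0.0448%) and 1 fell (0.00374%), and in 83 (0.31%) with the donor block, of which 70 rose (0.261%) and 13 fell (0.0486%). The averaged effects are estimated independently of the interaction in this balanced design, though they share its estimate of the spread. They are also estimated more precisely. For the gene PMEPA1 the SE was 0.18 for the interaction and 0.09 for each averaged effect. The counts therefore differ in power as well as in size of effect.

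The interactions of the 3 donors were close to uncorrelated. Across probe sets, which are not independent replicates, the correlation between donors was 0.035, 0.042 and -0.028 for the interaction, against 0.655, 0.519 and 0.588 for the averaged TGF-β3 effect and 0.323, 0.207 and 0.195 for the averaged oxygen effect. The interaction had 1 direction in 3 donors for 25.8% of probe sets, against 43.2% for TGF-β3 and 35.6% for oxygen. Within a donor, too, the interaction is less precise than an averaged effect, which limits these comparisons. The donors' own interactions had standard deviations of 0.403, 0.326 and 0.347 over all probe sets, and the median of their mean was -0.0046.

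**Figure D1:**
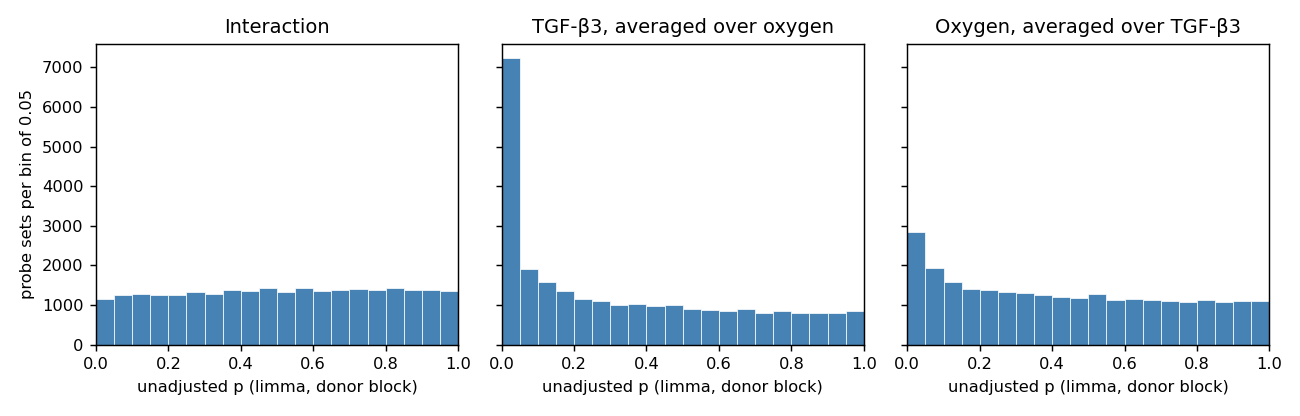
Unadjusted limma p-values of 26773 probe sets with the donor as a block, in bins of 0.05, for the interaction, the averaged TGF-β3 effect and the averaged oxygen effect. The bin next to 0 holds 1157 probe sets for the interaction, fewer than any other bin of that panel, and 7224 and 2832 for the averaged effects.

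An adjusted p above the threshold does not show that effects are additive, so the 95% interval of each interaction was set against fixed bounds. These intervals are not adjusted for the number of probe sets. Their half-width had a median of 0.39 on the log2 scale (quartiles 0.31 and 0.51), or 0.34 with the donor block. For 24107 probe sets (90.0%) the interval lay within a 2-fold departure from additivity in either direction, and for 47.4% within a 1.41-fold departure. With the donor block, 93.1% lay within 2-fold.

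Among the 2582 probe sets that TGF-β3 changed, 2295 (88.9%) had an interval within 2-fold of additivity, or 94.3% with donor-blocked intervals. The median effect of TGF-β3 on the probe sets that rose was 0.44 at 21% oxygen and 0.46 at 2% oxygen. On those that fell it was -0.46 and -0.49. Taken along the direction of the TGF-β3 effect, the median interaction was 0.01, with donor medians of 0.03, 0.04 and -0.03. The interval excluded 0 in 68 of these probe sets (2.63%), against 2.94% of all probe sets. For the 302 that changed by at least 2-fold on average, 139 (46.0%) were within 2-fold of additivity, and the intervals of the rest reached beyond that bound.

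PMEPA1, a SMAD target that feeds back on the TGF-β receptor signal, responded to TGF-β3 at both tensions. Its log2 signals in donors 1, 2 and 3 were 10.13, 10.05 and 10.06 at 21% oxygen without TGF-β3, 12.07, 12.11 and 11.85 at 21% with it, 10.39, 9.83 and 10.18 at 2% without it and 12.02, 12.07 and 11.92 at 2% with it. The groups with TGF-β3 lay apart from those without it, and the tensions overlapped within each. The TGF-β3 effect was 1.93 at 21% and 1.87 at 2% oxygen, and the interaction was -0.06 ± 0.18 with a 95% interval from -0.46 to 0.35. The inhibitory SMAD7 had an interaction of -0.20 ± 0.31, with an interval from -0.88 to 0.49 and donor values of -0.36, -0.10 and -0.13.

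The largest averaged rise with TGF-β3 was that of ALDH1A1, a retinaldehyde dehydrogenase that makes retinoic acid. Its signals were 8.61, 7.97 and 5.72 at 21% oxygen without TGF-β3, 12.77, 12.98 and 12.36 at 21% with it, 7.86, 7.88 and 6.24 at 2% without it and 12.86, 13.05 and 12.43 at 2% with it. The arrays with TGF-β3 lay between 12.36 and 13.05 whatever the oxygen tension, above every array without it. Its interaction was 0.19 ± 0.91, with an interval from -1.80 to 2.18, or from -1.09 to 1.46 with the donor block. PADI4, an enzyme that converts arginine residues to citrulline, had TGF-β3 effects of 4.61 and 4.83 at 21% and 2% oxygen. Its interaction of 0.22 ± 0.74 had donor values of 0.17, 0.26 and 0.23 and a donor-blocked interval from -0.26 to 0.69.

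The largest averaged fall was that of ABI3BP, a matrix protein. It had TGF-β3 effects of -5.69 at 21% and -5.60 at 2% oxygen, with an interaction of 0.09 ± 1.24. The fatty acid carrier FABP4 had effects of -4.57 and -4.36, and an interaction of 0.21 ± 0.74. The other named responders were ATP6AP1L, EMB, PTGER3 and PRR5L among the rises, and ANGPT2, CYP1B1, ULBP21 and ITGBL1 among the falls. Their interactions lay between -0.34 and 0.50, and every interval included 0. Of the 12, the interval lay within 2-fold for PRR5L without the block, and for PADI4, PRR5L, FABP4, ANGPT2 and ULBP21 with it.

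**Figure D2:**
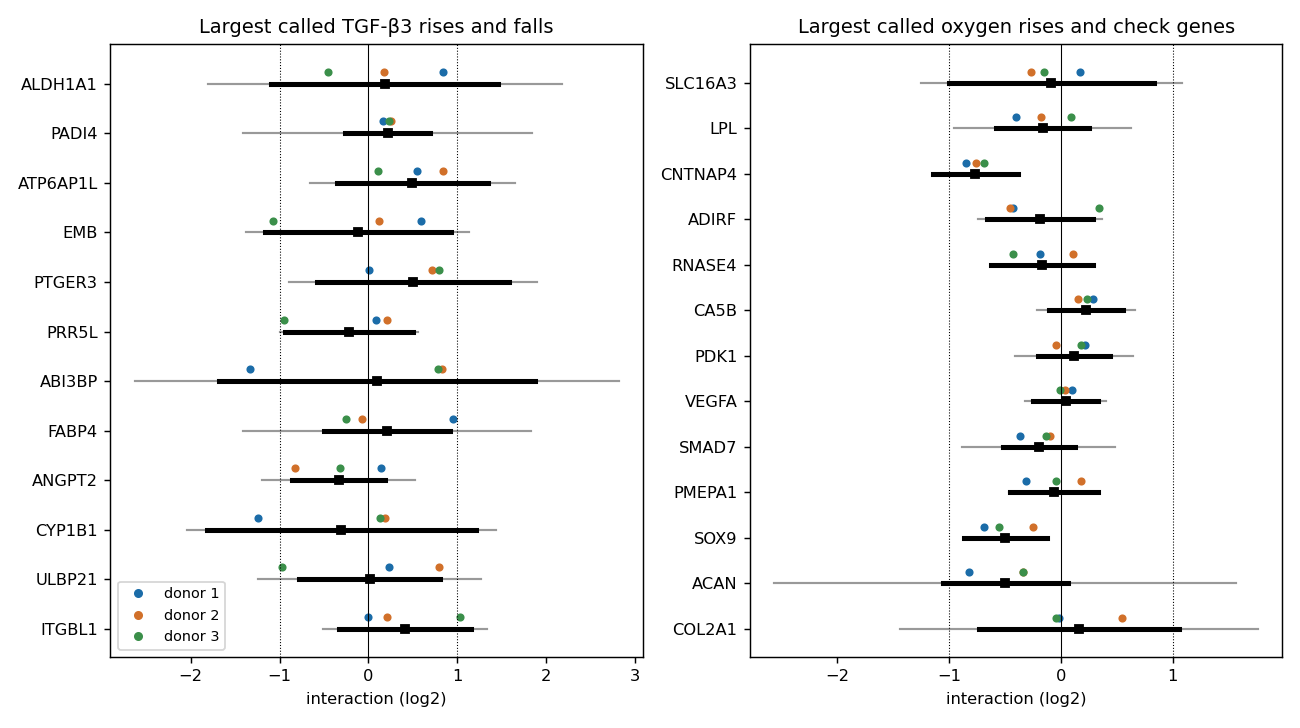
Interaction on the log2 scale for the 6 largest rises and 6 largest falls among genes called for the averaged TGF-β3 effect (left), and for the 6 largest rises among genes called for the averaged oxygen effect without the donor block and 7 check genes (right). Squares are the means of 3 donors, thick black lines the 95% limma intervals with the donor as a block, thin grey lines those without it, coloured dots the donors, and dotted lines a 2-fold departure from additivity. Most black lines cross 0, and those of CNTNAP4 and SOX9 lie below it.

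**Figure D3:**
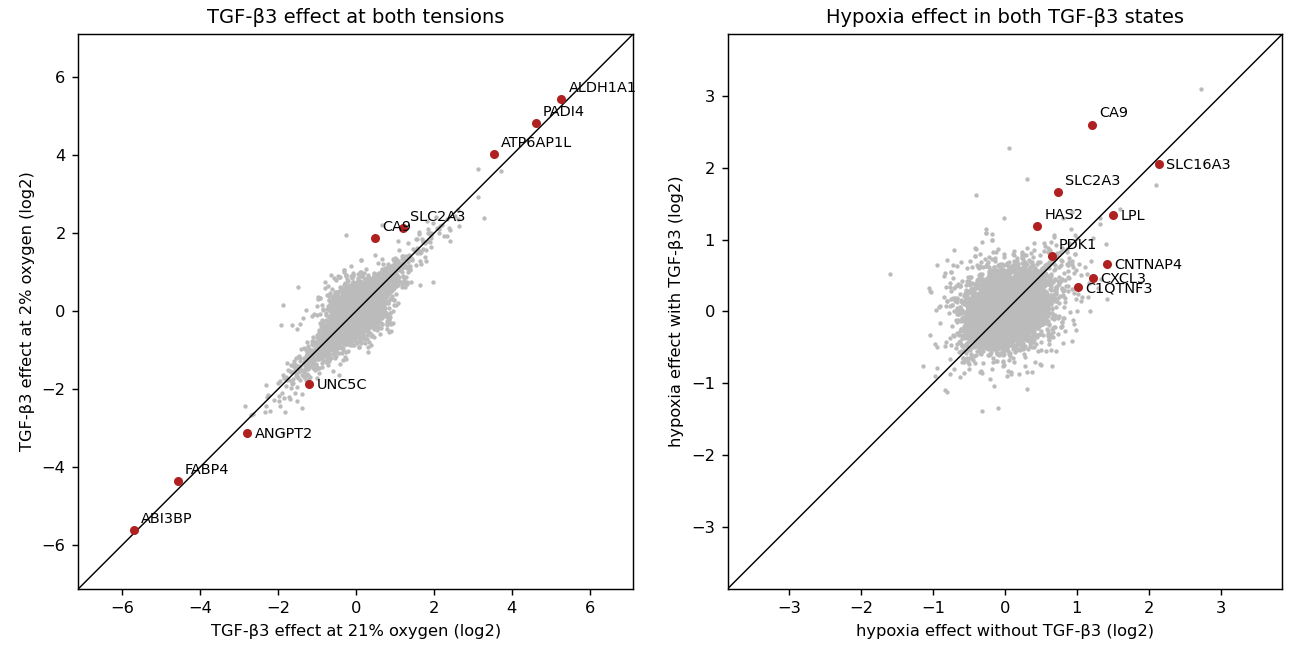
TGF-β3 effect at 2% against 21% oxygen (left) and hypoxia effect with against without TGF-β3 (right), in log2, for 26773 probe sets in grey with named genes in red. Points on the line are additive. The largest TGF-β3 effects, such as ALDH1A1 and ABI3BP, lie along the line, and CA9 lies above it in both panels.

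The 28 measured genes of the TGF-β response list had 0 members called for the interaction and a median of -0.02, with 12 of 28 above 0, beside a median of -0.0046 and 13069 of 26773 above 0 over all probe sets. TGF-β3 changed 19 of the 28 on average, against 9.64% of all probe sets. The intervals of 23 of the 28 lay within 2-fold of additivity, against 90.0% of all probe sets. The SMAD co-repressor SKIL had TGF-β3 effects of 1.24 at 21% and 1.22 at 2% oxygen, and the secreted CCN1 an interaction of 0.04.

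TGFB2, which encodes the ligand TGF-β2, had the highest interaction of the list. Its signals were 9.92, 9.99 and 10.21 at 21% oxygen without TGF-β3, 10.75, 10.66 and 10.38 at 21% with it, 9.23, 9.39 and 9.47 at 2% without it and 10.72, 10.71 and 10.38 at 2% with it. In each donor it was lowest at 2% oxygen without TGF-β3, and with TGF-β3 the signals at both tensions were nearly equal. The TGF-β3 effect was 0.56 ± 0.13 (SE) at 21% and 1.24 ± 0.13 at 2% oxygen, and the hypoxia effect -0.67 without and 0.00 with TGF-β3. The interaction was 0.68 ± 0.19, with donor values of 0.65, 0.64 and 0.74 and an unadjusted limma p of 0.00397 (adjusted p = 1). LTBP1, which stores latent TGF-β in the matrix, had 0.38 ± 0.19, and BAMBI, a pseudoreceptor that dampens the signal, -0.37 ± 0.20.

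Among the 22 measured genes of the BMP response list, the median was -0.19 and 5 were above 0. The list also holds ligands, receptors and secreted antagonists, such as BMP4, BMPR2 and NOG, so its median is not that of target genes alone. Donor medians were -0.18, -0.07 and -0.25. None of the 22 was called, and 14 had an interval within 2-fold, against 90.0% of all probe sets. The homeobox factor DLX5, a BMP target in bone-forming cells, had the lowest value. Its signals were 7.39, 6.70 and 7.54 at 21% oxygen without TGF-β3, 6.92, 6.63 and 6.32 at 21% with it, 8.09, 7.53 and 8.40 at 2% without it and 6.97, 6.38 and 6.10 at 2% with it. The 3 arrays at 2% oxygen without TGF-β3 were each the highest of their donor. TGF-β3 lowered DLX5 on average by 1.05 (adjusted p = 0.00863), with -0.59 at 21% and -1.52 at 2% oxygen, and the interaction was -0.94 ± 0.41 (unadjusted p = 0.045, adjusted p = 1). BMPER, which binds BMPs outside the cell, had -0.45 ± 0.19, with donor values of -0.62, -0.71 and 0.00. The HLH inhibitor ID1 had -0.71 with donor values of -0.46, -0.01 and -1.64.

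Oxygen changed fewer probe sets than TGF-β3. Of the 13 called, 11 (84.6%) had an interval within 2-fold of additivity, against 90.0% of all probe sets. SLC16A3, which exports lactate, gave 6.30, 7.22 and 6.82 at 21% oxygen without TGF-β3, 6.43, 8.01 and 7.91 at 21% with it, 9.02, 9.19 and 8.55 at 2% without it and 9.32, 9.71 and 9.49 at 2% with it. The 6 arrays at 2% oxygen lay above the 6 at 21%. Its hypoxia effect was 2.14 without and 2.05 with TGF-β3, and the interaction -0.08 ± 0.53, with an interval from -1.25 to 1.08. LPL, which splits circulating triglycerides, had hypoxia effects of 1.50 and 1.34 and an interaction of -0.16 ± 0.36. ADIRF, an adipogenesis regulator, the ribonuclease RNASE4 and the mitochondrial carbonic anhydrase CA5B had interactions of -0.18 ± 0.25, -0.17 ± 0.20 and 0.22 ± 0.20, each with an interval within 2-fold.

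CNTNAP4, a cell adhesion protein of the neurexin family, had an interval that excluded 0, unlike the other 5 of the 6 largest rises called for oxygen without the donor block. Its signals were 5.62, 5.56 and 5.80 at 21% oxygen without TGF-β3, 5.33, 5.66 and 5.71 at 21% with it, 7.24, 6.98 and 7.03 at 2% without it and 6.11, 6.32 and 6.25 at 2% with it. In each donor the signal at 2% oxygen without TGF-β3 was the highest, and hypoxia with TGF-β3 came second. The hypoxia effect was 1.43 without and 0.66 with TGF-β3, each ± 0.12 (SE). The interaction was -0.77 ± 0.17, with donor values of -0.85, -0.76 and -0.69, an unadjusted limma p of 0.00093 and an adjusted p of 1. Hypoxia raised it on average by 1.04 (adjusted p = 0.00244) and TGF-β3 lowered it on average by 0.48 (adjusted p = 0.00536). The TGF-β3 effect was -0.09 at 21% and -0.86 at 2% oxygen, each ± 0.12 (SE). The averaged fall thus came mostly from the arrays at 2% oxygen.

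With the donor block, oxygen changed 83 probe sets. This wider set was added after the data were seen. None was called for the interaction. The blocked interval excluded 0 in 16 of them (19.3%), against 4.32% of all probe sets, and the interaction had 1 direction in 3 donors for 34 (41.0%), against 25.8%. The median size of the interaction was 0.17 in these 83 and 0.11 over all, and the median blocked SE was 0.17 and 0.15. Without the block, the interval excluded 0 in 8 (9.64%), against 2.94%. The interval lay within 2-fold of additivity for 84.3% of the 83 with the block, against 93.1% of all probe sets. Without the block it did for 68.7%, against 90.0%. The 16 were named after their values were seen, and no test was made of them as a group. Of the 51 probe sets that both averaged effects changed with the donor block, 14 had a blocked interval that excluded 0 (27.5%). For 43 (84.3%) it lay within 2-fold. Taken along the direction of the TGF-β3 effect, the interaction was above 0 in 36 of the 51 (70.6%), against 50.1% of all probe sets. Its median along that direction was 0.07, with donor medians of 0.14, -0.01 and 0.04. Both sets were picked with the estimate of the spread that the blocked intervals use. Picking probe sets with a low estimate can raise the share of intervals that exclude 0. Whether it did so here was not tested.

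Of the 16, 8 lay above additivity where both agents had positive averaged effects. With the donor block, the averaged TGF-β3 effect missed the threshold for HAS2 (0.24, limma adjusted p = 0.111) and ARF2 (0.05, limma adjusted p = 0.684). CA9, a membrane carbonic anhydrase that controls pH and a HIF target, was the largest named one. Its signals were 5.55, 5.38 and 5.07 at 21% oxygen without TGF-β3, 5.39, 6.11 and 5.96 at 21% with it, 6.77, 7.43 and 5.43 at 2% without it and 8.28, 9.11 and 7.87 at 2% with it. The 3 arrays with both agents were above the other 9, and the arrays with hypoxia alone ranged widely, with donor 3 close to the arrays at 21% oxygen. The TGF-β3 effect was 0.49 at 21% and 1.88 at 2% oxygen, and the hypoxia effect 1.21 without and 2.60 with TGF-β3, each ± 0.45 (SE). The interaction was 1.39 ± 0.63, with donor values of 1.68, 0.94 and 1.55. Its unadjusted limma p was 0.0493, or 0.0167 with the donor block (adjusted p = 0.999).

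SLC2A3, a glucose transporter, had signals of 6.50, 5.78 and 5.05 at 21% oxygen without TGF-β3, 7.22, 7.59 and 6.12 at 21% with it, 6.99, 6.84 and 5.72 at 2% without it and 8.94, 9.58 and 7.41 at 2% with it. In each donor the culture with both agents was the highest and that with neither the lowest, though the donors differed in level. Its interaction was 0.93 ± 0.83, with donor values of 1.24, 0.93 and 0.62 and an unadjusted limma p of 0.287, or 0.0236 with the block (adjusted p = 0.999). The glucose transporter SLC2A1 had an interaction of -0.23, with donor values of -0.24, -0.12 and -0.35.

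HAS2, which makes hyaluronan, had signals of 7.54, 7.21 and 7.82 at 21% oxygen without TGF-β3, 7.38, 6.82 and 7.99 at 21% with it, 7.99, 7.72 and 8.19 at 2% without it and 8.57, 8.06 and 9.11 at 2% with it. TGF-β3 had an effect of -0.12 at 21% and 0.61 at 2% oxygen, each ± 0.31 (SE). The donor interactions of 0.74, 0.73 and 0.75 were nearly equal, while the donors' levels were spread, so the SE was 0.44 without and 0.18 with the block. The interaction of 0.74 had an unadjusted limma p of 0.119 without and 0.00255 with the block (adjusted p = 0.999). Others above additivity were ARHGEF5 with 0.49 ± 0.21 and the membrane proteins TMEM204 with 0.45 ± 0.20 and TMEM45A with 0.29 ± 0.12. With the block these SEs were 0.11, 0.19 and 0.12. TMEM45A had donor values of 0.41, -0.03 and 0.48. The small GTPase ARF2, with 0.43 ± 0.21 (± 0.12 with the block), and 1 unnamed probe set were also above additivity.

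**Figure D4:**
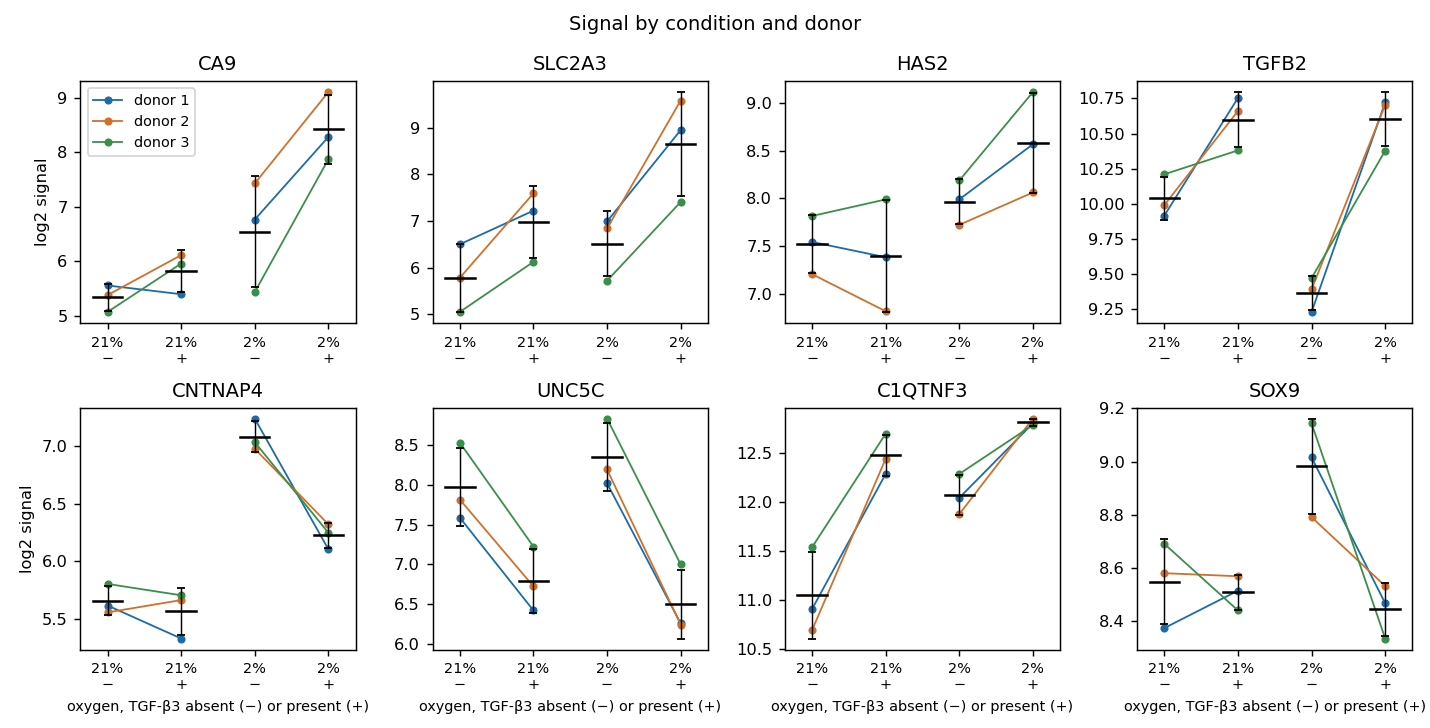
Log2 signal of 8 genes in the 4 conditions. Dots are arrays coloured by donor, lines join the arrays of a donor at 1 oxygen tension, and black bars give the mean ± SD of 3 arrays. For CA9, SLC2A3 and TGFB2 the mean goes up more with TGF-β3 at 2% than at 21% oxygen, for HAS2 it goes up at 2% and slightly down at 21%, for CNTNAP4, UNC5C and SOX9 it goes down more, and for C1QTNF3 it goes up less.

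C1QTNF3, a secreted protein of the C1q and TNF-related family, was the reverse case of both agents raising a gene by less than the product of their folds. Its signals were 10.91, 10.70 and 11.54 at 21% oxygen without TGF-β3, 12.29, 12.44 and 12.70 at 21% with it, 12.04, 11.88 and 12.29 at 2% without it and 12.80, 12.85 and 12.78 at 2% with it. The 3 arrays with both agents lay between 12.78 and 12.85, each the highest of its donor. TGF-β3 gave 1.43 at 21% and 0.74 at 2% oxygen. The interaction was -0.68 ± 0.27, with donor values of -0.62, -0.77 and -0.66, an unadjusted limma p of 0.0292 and an adjusted p of 1.

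In 5 of the 16, hypoxia raised a gene that TGF-β3 lowered, each on average, and the interaction was below 0. Besides CNTNAP4 these were CXCL3, a neutrophil chemokine, CDA, a cytidine deaminase, PER3 of the circadian clock, and CLTRN, which traffics amino acid transporters. CXCL3 had signals of 6.51, 6.11 and 5.90 at 21% oxygen without TGF-β3, 4.93, 4.90 and 4.57 at 21% with it, 7.94, 7.07 and 7.19 at 2% without it and 5.38, 5.35 and 5.09 at 2% with it. The 3 arrays at 2% oxygen without TGF-β3 were above the other 9. Its hypoxia effect was 1.23 without and 0.47 with TGF-β3, and the interaction -0.76 ± 0.32, or ± 0.21 with the donor block. CDA had -0.62 ± 0.29, PER3 -0.39 ± 0.17 and CLTRN -0.38 ± 0.17. With the donor block these SEs were 0.23, 0.15 and 0.10. In the remaining 2, PHLDB2, which links microtubules to the cell cortex, and B4GALT6, a glycolipid galactosyltransferase, TGF-β3 was positive and hypoxia negative. Their interactions were 0.35 ± 0.35 and 0.39 ± 0.53, each ± 0.14 with the donor block.

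Of the 39 measured hypoxia response genes, 0 were called, 24 were above 0 and the median was 0.06, with donor medians of 0.11, 0.03 and -0.01. The intervals of 30 of the 39 lay within 2-fold of additivity, against 90.0% of all probe sets. VEGFA, the main growth factor of blood vessels, had signals of 11.68, 11.64 and 11.71 at 21% oxygen without TGF-β3, 12.00, 12.13 and 12.41 at 21% with it, 12.06, 11.91 and 12.05 at 2% without it and 12.49, 12.42 and 12.74 at 2% with it. In each donor it was lowest with neither agent and highest with both. Its TGF-β3 effect was 0.50 at 21% and 0.54 at 2% oxygen, and its interaction 0.04 ± 0.16, with an interval from -0.32 to 0.40, within 1.41-fold of additivity. PDK1, which keeps pyruvate out of mitochondria, had 0.12 ± 0.24, with an interval from -0.41 to 0.64. The lipid droplet protein HILPDA had 0.58 ± 0.25 with donor values of 0.90, 0.77 and 0.06, and NDUFA4L2, a mitochondrial HIF target, 0.36 with donor values of 1.27, 0.41 and -0.59.

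The 22 glycolysis genes, with no member called, had a median of -0.03 and 9 above 0. Without SLC2A3, the members lay between -0.28 for PFKM and 0.20 for HK2, the hexokinase of the pathway's entry step. Examples were PFKL with 0.02, PGK1 with -0.01 and LDHA with -0.20. The intervals of 20 of the 22 lay within 2-fold of additivity and those of 12 within 1.41-fold, against 90.0% and 47.4% of all probe sets. Oxygen changed 8 of the 22 with the donor block, against 0.31% of all probe sets. All 21 oxidative phosphorylation genes had an interval within 2-fold, with a median of -0.06 and 6 above 0.

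The cartilage list had no member called, 10 of 22 above 0 and a median of -0.01. SOX9, the master transcription factor of chondrocytes, had signals of 8.37, 8.58 and 8.69 at 21% oxygen without TGF-β3, 8.51, 8.57 and 8.44 at 21% with it, 9.02, 8.79 and 9.14 at 2% without it and 8.47, 8.53 and 8.33 at 2% with it. In each donor it was highest at 2% oxygen without TGF-β3, and the other 3 conditions overlapped. TGF-β3 had an effect of -0.04 at 21% and -0.54 at 2% oxygen, each ± 0.11 (SE). The interaction was -0.50 ± 0.16, with donor values of -0.69, -0.25 and -0.56, an unadjusted limma p of 0.00924 and an adjusted p of 1. Aggrecan, ACAN, the main cartilage proteoglycan, had -0.50 ± 0.94 and -0.82, -0.34 and -0.34 in the 3 donors, with a blocked interval from -1.06 to 0.06. The collagen gene COL2A1 had 0.16 ± 0.73, with an interval from -1.44 to 1.77. CHST11, which sulfates chondroitin, had -0.43 ± 0.56.

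The 20 genes of chondrocyte hypertrophy and bone had a median of -0.23, with 6 above 0, donor medians of -0.16, 0.03 and -0.38, and no member called. MMP13, a collagenase, DLX5 and the osteoblast factor SP7 had the smallest blocked p-values. MMP13 gave 3.74, 3.39 and 4.66 at 21% oxygen without TGF-β3, 3.46, 3.29 and 3.73 at 21% with it, 5.25, 4.18 and 5.94 at 2% without it and 3.37, 3.38 and 3.73 at 2% with it. The 3 arrays at 2% oxygen without TGF-β3 were each the highest of their donor. Apart from donors 1 and 3 in that condition, every array was below 4.89, the lowest first quartile of any array, so the size of the interaction rests on signals near the low end of the scale. Its interaction was -1.19 ± 0.57, with an unadjusted limma p of 0.0594, or 0.0068 with the block. SP7 had -0.58 ± 0.55, with donor values of -0.41, 0.05 and -1.39, and RUNX2, another osteoblast factor, -0.25 with -0.14, -0.26 and -0.37. DLX5 and BMP2 belong to this list and to the BMP list.

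No other list had a member called. The 22 inflammatory genes had a median of -0.11 with 6 above 0, and a range from -0.92 for CCL2 to 0.55 for PTGES. The unadjusted limma p with the donor block was under 0.05 for 4 of the 22, against 4.32% of all probe sets. The neutrophil chemokine CXCL5 had -0.77 ± 0.37, with donor values of -0.75, -0.01 and -1.54, and the interleukin IL6 had 0.03. The 25 contractile genes had a median of 0.04 and a range from -0.15 for ACTG2 to 0.15 for ACTN1. The median was 0.05 for 27 cell cycle genes, 0.02 for 31 fibrous matrix genes, 0.00 for 22 collagen modification genes, -0.07 for 23 matrix proteases and inhibitors, -0.03 for 21 adipogenic genes, and 0.03 for 21 mesenchymal stromal genes. It was 0.03 for 18 interferon response genes, 0.00 for 24 genes of unfolded protein and amino acid stress, 0.03 for 14 sterol synthesis genes and -0.02 for 28 Wnt response genes. Among markers of other cells, which had no member called either, the median was 0.05 for 14 haematopoietic, -0.11 for 11 endothelial, 0.03 for 8 erythroid, -0.17 for 9 osteoclast, and -0.03 for 13 muscle and neural genes. Medians this close to 0 changed sign with the scaling of the arrays for the TGF-β response and cartilage lists (array medians made equal) and for the fibrous matrix, collagen modification, stress and sterol lists (quantile normalization). With array medians made equal, the median over all probe sets also changed sign, from -0.0046 to 0.0189. Whether other cells contributed to the results was not tested.

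**Figure D5:**
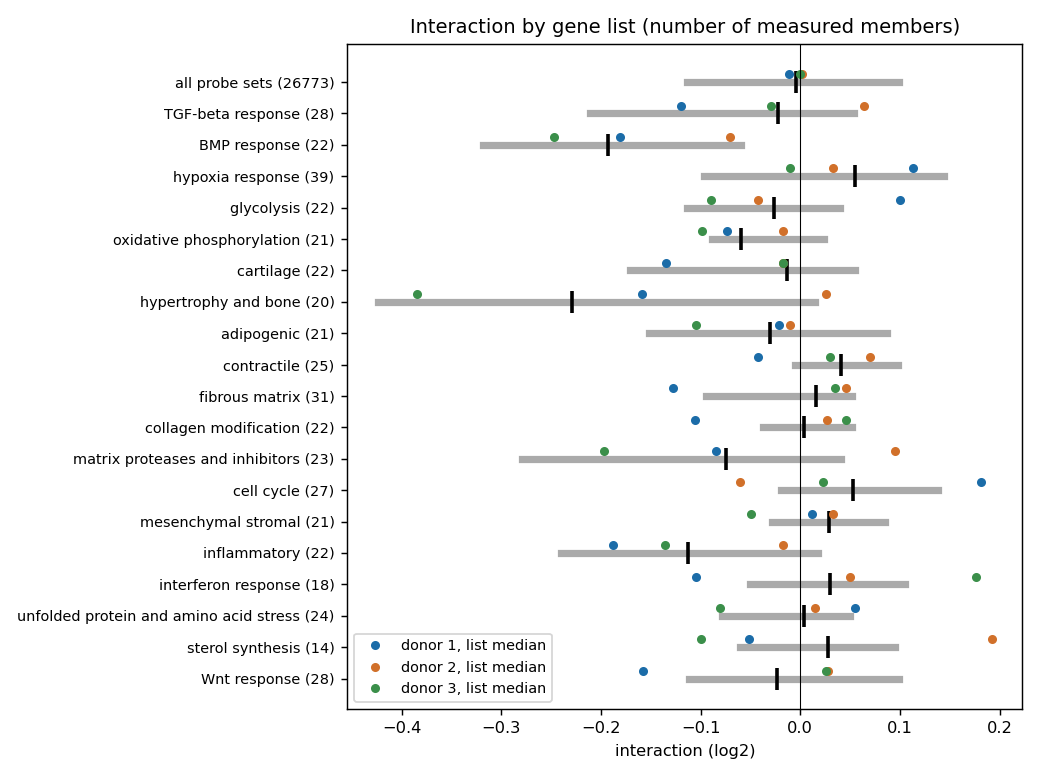
Interaction on the log2 scale by gene list, with the number of measured genes in brackets. Black ticks are medians, grey bars the range between quartiles and coloured dots the list medians in each donor, with all probe sets on top. The lowest medians are those of hypertrophy and bone (-0.23) and BMP response (-0.19), and the donors' medians fall on both sides of 0 for most lists.

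The genes with the smallest blocked p in each direction were named by rule, so their p-values describe the ranking and are no test of it. Below 0, the netrin receptor UNC5C had signals of 7.59, 7.82 and 8.54 at 21% oxygen without TGF-β3, 6.42, 6.72 and 7.22 at 21% with it, 8.02, 8.20 and 8.84 at 2% without it and 6.25, 6.24 and 7.00 at 2% with it. The 6 arrays with TGF-β3 lay below the 6 without it. TGF-β3 gave -1.19 at 21% and -1.86 at 2% oxygen, and the interaction was -0.66 ± 0.44, with donor values of -0.60, -0.86 and -0.53 and an unadjusted limma p of 0.162 without and 0.000236 with the block (adjusted p = 0.999). TNFSF13, a cytokine that acts on B cells, had -0.53 ± 0.15 and RIBC2, a protein of cilia, -0.60 ± 0.13 at a mean log2 signal of 4.94. The other 6 beside CNTNAP4 were MIR218-2, PROX1, HCN2, ITPK1, OR8G4 and DDX28, between -0.66 and -0.48. MIR218-2 and PROX1 had mean log2 signals of 4.62 and 4.15, below 4.89, the lowest first quartile of any array. OR8G4 had a mean of 5.03, close to it.

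Above 0, LAMTOR5, a subunit of the lysosomal Ragulator complex, had signals of 9.01, 9.00 and 9.07 at 21% oxygen without TGF-β3, 8.57, 8.66 and 8.77 at 21% with it, 8.57, 8.53 and 8.55 at 2% without it and 8.82, 8.58 and 8.85 at 2% with it. In each donor the culture with neither agent was the highest. TGF-β3 had an effect of -0.36 at 21% and 0.20 at 2% oxygen, and the interaction was 0.56 ± 0.13 by limma (unadjusted p = 0.00103, adjusted p = 1). UPK1B, a tetraspanin, had 0.78 ± 0.20 at a mean log2 signal of 5.15, with the 3 arrays of both agents above the other 9. RAB3C, a vesicle GTPase, had 0.72 ± 0.19, while a second probe set of RAB3C had -0.32. The other 5 beside ARHGEF5 and HAS2 were VAMP4, SCN4A, LOC100299144, KPRP and LOC781337, between 0.40 and 0.56.

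Interactions of at least 2-fold were seen for 76 probe sets (0.284%), 48 above and 28 below 0. Their median log2 signal was 4.76, against 6.63 over all probe sets, and 5 of them had a single gene symbol, against 18550 of 26773 overall. The 5, named after their values were seen, were CA9, MMP13, the leucine-rich repeat protein LRRN1, the chemokine CXCL14 and MIR568. The direction was shared by 3 donors in 58 of the 76, and the interval excluded 0 in 49. None was called.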

How the data were processed

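Affymetrix arrays covering whole bovine transcripts measured the total RNA of 12 cultures. The authors deposited signals after RMA, the robust multi-array average, made with Partek 6.6 per the submitters' processing notes. The deposited values were taken as log2 from their range, since no label read here states the scale. Nothing read here states their test, a donor term or filters. Values were used as deposited. Names came from the platform's annotation, checked against a RefSeq gene table for ARS-UCD2.0. Of 26773 probe sets, 18550 had 1 symbol, 595 several and 7628 none, and the probe set with the highest mean stood for a gene (18087 symbols, 416 with several probe sets).

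Tests were made in R 4.3.3 by limma 3.58.1, fitting all 12 arrays with group as the term, with 8 residual and 3.14 prior degrees of freedom, and a threshold of 0.05 after Benjamini-Hochberg adjustment over all probe sets. The code was tested on simulated data. Arrays of 1 donor are paired, since the titles number the animals. After subtraction of the group means, the correlation was 0.177 to 0.602 for 18 pairs of arrays of the same donor and -0.44 to 0.1 for 36 pairs of other donors in another condition, and each of the 12 arrays was closest to an array of its own donor. The fit with donor as a fixed block had 6 residual and 3.34 prior degrees of freedom, and both fits give the same interaction with a different error.

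Genes were named by rule from probe sets with 1 symbol. The rule took the 10 highest and 10 lowest called interactions, filled with the smallest blocked p of each direction, the 6 largest rises and falls of each averaged effect among called ones, up to 3 members of each list with the smallest blocked p, and 8 check genes. The only averaged fall with oxygen was unnamed. Other members given as examples were chosen after their values were seen. The comparison, the 24 lists and the rule were chosen with earlier results of these data known. No promoter, protein or genome sequence was used here.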

Additional observations from a re-analysis of the deposited data

How the results depend on the processing

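The interaction was recomputed under 29 alternatives: a fixed and a random donor block, the 3 donors' differences alone, 2 other scalings, a filter on low signal, 2 other variance priors, 1 probe set per symbol, 2 of these combined with the replicate block, and each array or donor left out. In 27 the count of called probe sets was 0. With the replicate block it was 0, with a smallest adjusted p of 0.12, and it was also 0 with the random block, with a smallest adjusted p of 0.098. Leaving out 1 array or donor gave counts between 0 and 1, likewise 0 to 1 for higher and 0 to 1 for lower calls. Without donor 2 at 2% oxygen without TGF-β3, an unnamed probe set was called (-1.33, limma adjusted p = 0.0475, against -1.21 and 0.188 with all arrays). Without donor 3 and with the replicate block, another unnamed probe set was called (2.82, limma adjusted p = 0.0097), with donor values of 2.89, 2.75 and -1.54. The cause was not tested. The share of unadjusted p-values under 0.05 lay between 1.77% and 5.65%.

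None of 3446 values of the 122 named genes under these alternatives was called, and 18 changed sign. VEGFA changed sign to -0.0039 with quantile normalization, with and without the replicate block, and lay between -0.0522 and 0.158 with arrays left out. Over the same omissions ACAN lay between -1.11 and 0.0348, COL2A1 between -0.368 and 0.698, PDK1 between -0.0346 and 0.275, PMEPA1 between -0.21 and 0.071, and SMAD7 between -0.407 and 0.0257. A description of promoters was planned for called genes and was not run. With 3 arrays per group, the unadjusted interval could not tell departures smaller than its half-width of 0.39 from 0 for the median probe set. After adjustment over all probe sets, larger departures also missed the threshold, such as -0.77 ± 0.17 for CNTNAP4.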

Other observations

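Of the 26773 probe sets, 297 had values identical to those of another probe set on every array, and 266 of these had no single gene symbol. The probe set with the lowest adjusted p for the interaction (0.188) was unnamed and had a mean log2 signal of 3.62, with donor values of -1.13, -0.87 and -1.64.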
